A study of Mus musculus with 2 samples.

Results

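The very wide intron peaks are the 826 stretches of RNA recovered with the splicing protein BUD31 that lie in introns of protein-coding genes and measure 8000 bp or more from start to end. They were chosen by their annotation class (intron), their transcript type (protein-coding) and their width, from 16331 peaks in all, of which 12187 were intron peaks of protein-coding genes. The 826 made up 6.78% of those intron peaks and were assigned to 447 genes. Their widths are therefore a description and are not tested. RIP-seq, which sequences the RNA that comes down with a protein, was done on testicular germ cells of C57BL/6J mice at postnatal day 14, freed from the testis by enzymatic digestion in 2 steps. There was 1 library recovered with BUD31 and 1 input library, with no treatment or genotype between them, and the labels do not say whether animals were pooled. The comparison of these libraries asks which RNAs were recovered with BUD31. The peak list carries no read count, fold, score or p-value, so the depth behind a peak is unknown, no peak can be ranked by strength, and there is no replicate check.

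BUD31 is a protein of the spliceosome, the machine that removes introns from newly made transcripts and joins the exons. Introns are mostly degraded soon after their removal, so intron sequence in a cell's RNA comes largely from transcripts that are not yet spliced or from introns just released. At postnatal day 14 the first wave of mouse germ cells has entered meiotic prophase, in which homologous chromosomes pair and recombine and the unpaired parts of the X and Y chromosomes are silenced.

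Intron peaks of this width can hold a whole small RNA gene, and mature miRNA sequences show which ones they held. In the table of RefSeq miRNAs (GRCm38.p6), 14 mature miRNAs from 10 miRNA genes lay wholly under a very wide peak, in 10 host genes and with 14 different seeds. That table is not complete, and 4 more miRNA genes wholly under a member, for which it holds no sequence, are named with the other overlapped genes. Of the 10 miRNA genes 7 lie on the strand of their host, 2 on the other strand and 1 in a host whose strand was not in the tables used. A miRNA is cut from a hairpin in its primary transcript and pairs with its targets mainly through the seed. The 7 below sit in 4 hosts, are all on the host's strand and are shown because their hosts include the ubiquitin ligase gene Huwe1 and Cstf2, a cleavage stimulation factor of mRNA 3' end formation. They are written 5' to 3', with the seed (bases 2 to 8) in capitals.
miR-128-1-5p: cGGGGCCGuagcacugucuga
miR-128-3p: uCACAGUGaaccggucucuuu
miR-1843a-5p: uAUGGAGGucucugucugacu
miR-1843a-3p: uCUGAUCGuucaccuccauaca
miR-3112-5p: aCAUAGAAaaggcagucugca
miR-3112-3p: cAGUUUGUcucuucuuugucu
miR-3113-3p: uCCUGGCCcugguccugguc

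The 2 miR-128 arms lie in R3hdm1 under a peak of 15785 bp at chr1:128193881-128209665 on the plus strand of the gene. The miR-1843a arms lie in Dcaf5, which encodes a substrate receptor of a ubiquitin ligase, under a peak of 18245 bp at chr12:80382346-80400590, and the guide RNA gene Scarna3b overlaps the same place. The miR-3112 arms lie in Cstf2 under a peak of 17020 bp at chrX:134058491-134075510, and miR-3113 lies in Huwe1 under a peak of 12880 bp at chrX:151847841-151860720. No 2 of the 14 mature miRNAs shared a seed.

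Some of the wide peaks also covered an annotated transcript start, at the edge of a gene or inside it. The promoter table of RefSeq (GRCm38.p6) gives a window from 250 bases before to 50 bases after each start, and 52 such windows, of 52 genes, lay wholly under a very wide peak. The 250 bases before the start are given for the 3 genes with the widest of those peaks, on the strand of the gene and 5' to 3', with the letters CCAAT and their reverse complement ATTGG in capitals. They are shown because they hold start regions that the authors' class places in an intron.
Elk1: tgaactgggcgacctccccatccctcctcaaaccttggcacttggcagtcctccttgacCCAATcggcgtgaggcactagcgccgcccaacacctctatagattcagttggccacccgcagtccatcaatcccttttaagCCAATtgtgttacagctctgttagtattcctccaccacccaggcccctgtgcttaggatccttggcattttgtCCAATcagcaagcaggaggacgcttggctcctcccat
Xiap: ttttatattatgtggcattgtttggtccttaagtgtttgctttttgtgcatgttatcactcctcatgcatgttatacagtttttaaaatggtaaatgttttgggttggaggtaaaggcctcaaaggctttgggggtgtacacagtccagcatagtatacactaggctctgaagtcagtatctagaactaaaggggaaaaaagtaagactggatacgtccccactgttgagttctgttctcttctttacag
Fam178b: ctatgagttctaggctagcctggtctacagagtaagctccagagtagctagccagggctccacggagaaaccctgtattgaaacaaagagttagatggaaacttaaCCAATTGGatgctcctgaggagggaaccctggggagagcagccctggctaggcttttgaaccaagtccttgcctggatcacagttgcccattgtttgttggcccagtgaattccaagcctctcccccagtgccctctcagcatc

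The Elk1 stretch is chrX:20950609-20950858 on the minus strand, the Xiap stretch is chrX:42070992-42071241 on the plus strand, and the Fam178b stretch is chr1:36593333-36593582 on the minus strand. The Elk1 peak crossed both ends of the gene, whereas the Xiap and Fam178b peaks lay wholly inside their genes and covered internal starts. Elk1 encodes a transcription factor of the ETS family and Xiap an inhibitor of apoptosis. CCAAT, searched on both strands of the 250 bases and free to overlap its own reverse complement, stood in 21 of the 52 windows (40.4%), in 46.5% of the 101 windows under narrower intron peaks and in 33.9% of all 21757 windows on chromosomes with a peak. The palindrome TGACGTCA stood in none of the 52, in none of the 101 and in 1.5% of all windows. The median G and C content was 58.2% in the 52 windows, 58% in the 101 and 52.8% in all windows. The medians of CpG dinucleotides were 17, 16 and 6, so windows under very wide and narrower intron peaks were alike in these measures. Such matches describe letters in a window only.

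The median width of the members was 11275 bp (range 8000 to 59110 bp), with quartiles of 9430 and 15195 bp. The other 11361 protein-coding intron peaks had a median of 1230 bp (range 200 to 7995 bp). Most members were under 15 kb, with 270 (32.7%) under 10 kb and 342 (41.4%) from 10 to below 15 kb. A further 115 (13.9%) were from 15 to below 20 kb, 72 (8.72%) from 20 to below 30 kb and 27 (3.27%) were 30 kb or wider. The distribution of widths had no gap at 8 kb, so the limit divides a continuous range. Widths change in steps of a bin whose size is fixed per chromosome, 200 to 230 bp, which sets what can lie next to the limit. Just inside it were 10 peaks of 8000 bp, on chromosomes 18 and 5, in genes that include Smad4 and Smad2, which carry transforming growth factor signals to the nucleus, and 11 peaks of 8050 bp on the X chromosome. Just outside it were 20 peaks of 7995 bp on chromosomes 1 and 12, of which 1 each lay in Spag16, Immp2l, Cog5 and Ttll5, genes that also had members. Together the members summed to 11.2 of the 32.6 Mb under protein-coding intron peaks, or 34.5% of that length.

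**Figure D1:**
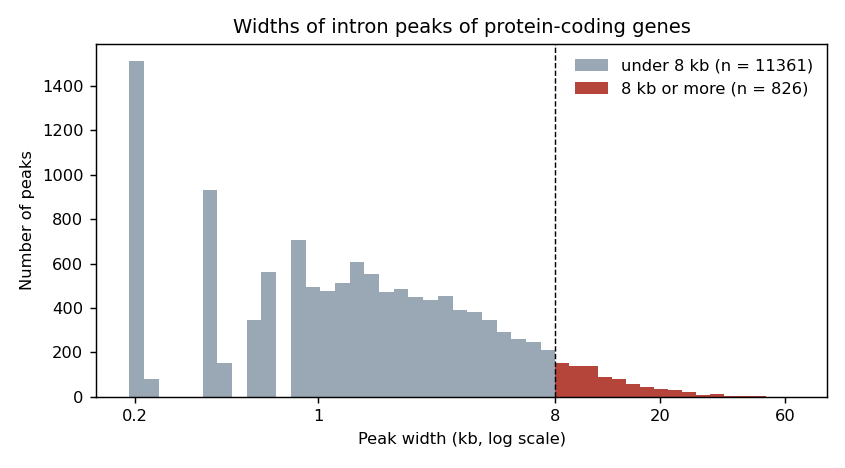
Number of protein-coding intron peaks (vertical axis) by width in kb on a log scale, with the 826 peaks of 8 kb or more in red, the 11361 narrower ones in grey and the limit as a dashed line. The counts fall without a gap from about 1 kb past 8 kb to the widest peak of 59.1 kb, and the separate bars at the left are widths of 1 to a few bins.

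The widest single peaks lay in genes that act in transcription, sister chromatid cohesion, protein glycosylation and the cytoskeleton. The widest, of 59110 bp at chrX:77541971-77601080, lay in Tbl1x, which encodes a subunit of nuclear corepressor complexes, and Tbl1x had 3 more members of 15870, 17710 and 19090 bp. Zeb1, a zinc finger transcription factor, had 1 member of 51400 bp. Galnt1, an enzyme that starts mucin-type sugar chains, had members of 50400 and 8000 bp. Stag2, a subunit of the cohesin ring that holds sister chromatids together, had 1 member of 49450 bp at chrX:42148881-42198330. Diaph2, a formin that assembles actin filaments, had its widest member of 48990 bp at chrX:130388611-130437600. Commd10 followed with 44200 bp. Rprd1a, which binds the tail of RNA polymerase II, had 1 intron peak only, of 43600 bp, and it covered 95.9% of the gene. Dtnb, a component of the dystrophin complex, had 2 of the 10 widest, of 42640 and 38950 bp. March3, a ubiquitin ligase of membranes, had 1 of 39000 bp. Kdm6a, which removes methyl groups from histone H3 lysine 27, came next with 38870 bp. Of the 10 widest, 5 lay on chromosome 18, 3 on the X chromosome and 2 on chromosome 12.

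A gene most often had a single member. Of the 447 genes 266 had 1, 107 had 2, 24 had 3, 24 had 4 and 26 had 5 or more, up to 16. The 181 genes with 2 or more were 40.5% of them (Wilson 95% interval 36.0 to 45.1%), an interval for the counting error alone, since genes are not replicates. The 26 genes with 5 or more held 178 members, or 21.5% of all. A gene with a member had a median of 6 protein-coding intron peaks, and in 70 genes every one of them was 8 kb or wider, among them 58 genes whose single intron peak was wide. The 447 genes were 19.8% of the 2260 genes with a protein-coding intron peak. Of the 14864 protein-coding reference genes on chromosomes with a peak, 15.2% had such an intron peak and 3.0% had a very wide one. Gene numbers of 446 of the 447 genes matched that reference.

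The 6 genes with the most members had 8 to 16 each. Spag16, a component of the central apparatus of the sperm axoneme, had 16 members among its 108 intron peaks. Their median width was 10250 bp (8200 to 21730 bp). Centred along the gene from its start, 1 lay at 0.915% of its length, 8 between 21.4 and 39.5%, 1 at 53.5% and 6 between 76.0 and 88.6%. Together they summed to 191 kb, or 21.3% of its 898 kb. Mageb18, a member of the melanoma antigen family, had 14 members among 45 intron peaks on the X chromosome, with a median width of 11500 bp (8280 to 30590 bp). They covered 44.1% of its 481 kb, about as long in sum (212 kb) as in Diaph2. Diaph2 had 11 members among 99 intron peaks, from 9200 to 48990 bp, which summed to 213 kb, or 29.7% of the gene. Immp2l, a peptidase of the mitochondrial inner membrane, had 11 among 92, from 9225 to 17425 bp, which covered 15% of its 932 kb. Tex16, a gene named for its expression in testis, had 9 among 21, from 8280 to 27140 bp, and they covered 59.1% of its 231 kb. Hs6st2, which adds sulfate to heparan sulfate, had 8 among 39, from 8510 to 19320 bp, covering 35.4% of the gene. Each of these genes also had narrower intron peaks, from 12 in Tex16 to 92 in Spag16.

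**Figure D2:**
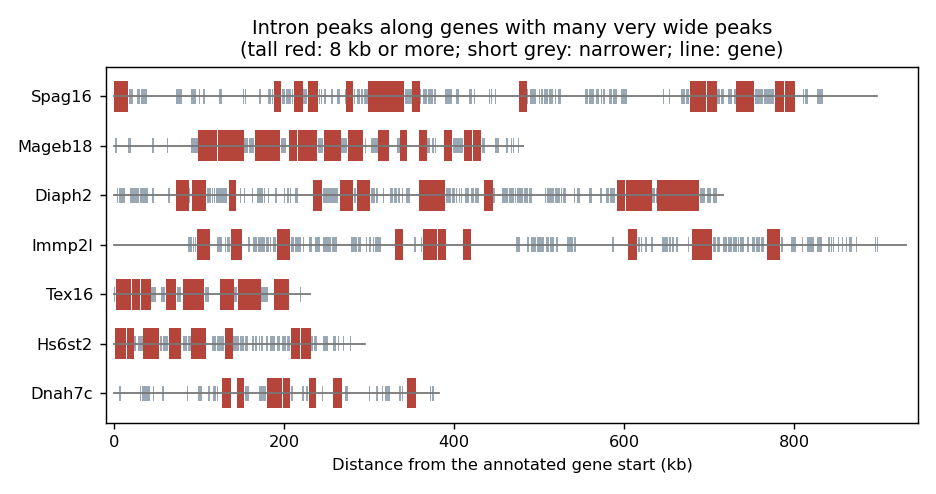
Protein-coding intron peaks along 7 genes, as distance in kb from the annotated start in the direction of transcription, with peaks of 8 kb or more as tall red blocks, narrower ones as short grey marks and the gene as a line. The 16 members of Spag16 fall in groups along its 898 kb, whereas the 9 of Tex16 take up 59.1% of its 231 kb.

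Of the 20 genes with the most members 7 lay on the X chromosome, 6 on chromosome 12, 5 on chromosome 1 and 2 on chromosome 18. Dnah7c and Dnah7b, which encode inner-arm dynein heavy chains of the axoneme, had 7 and 6 members, and Dnah7a had 2, of 9020 and 8200 bp. The 3 are near-identical copies and the authors' counting could have split reads between them, so the numbers of each are uncertain. Ttll5, which adds glutamate chains to tubulin, had 6 members of 9430 to 20910 bp. Ncoa2 and Ncoa1, coactivators of steroid receptors, had 6 and 5 members with widest peaks of 32185 and 20910 bp. Dtnb, with 5 members, had the largest summed width (132 kb) of the genes with 5. Cspp1, a centrosome and spindle protein, had 5 of 6 intron peaks at 8 kb or more, and Eif5b, a translation initiation factor, had 4 of 4, of 8815, 9840, 11480 and 17220 bp, which covered 82.2% of the gene. The uncharacterised gene AW554918 had 7 among 14.

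**Figure D3:**
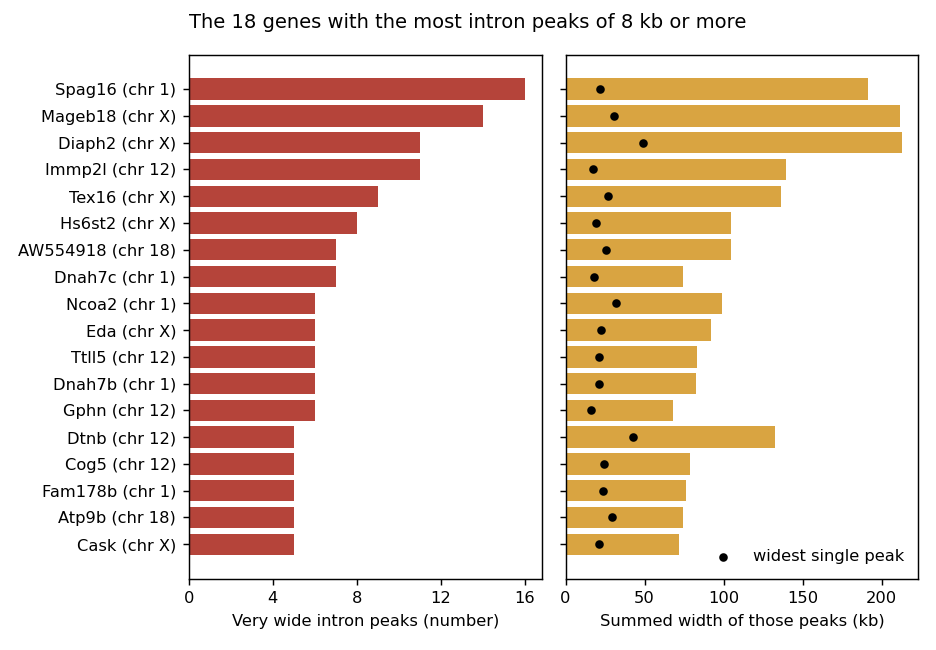
The 18 genes with the most very wide intron peaks (ties ordered by summed width), with the number of those peaks in the left panel and their summed width in kb in the right panel, where a dot marks the widest single peak. Spag16 has the most peaks (16) and Diaph2 the largest sum (213 kb), and Dtnb, with 5 peaks, has a sum near that of Immp2l with 11.

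Members covered large parts of some genes and small parts of others. Over genes, the median share of the gene's length under its very wide peaks was 29.8% (quartiles 17.1 and 48.7%), with at least 50% covered in 106 genes and at least 80% in 26. Genes with 1 wide peak over their whole length were short. They were Ubald1, Elk1, Gpr22, Myl6b, Fem1c and Eif1a, a translation initiation factor. Snrpd1, a core protein of the spliceosomal small nuclear ribonucleoproteins, was covered over 99.95% of its length by a peak of 12800 bp. Elk1, of 17.2 kb, lay under a peak of 31280 bp that also held the gene Uxt and part of Cfp, so that peak cannot be told to be 1 transcript. A peak that runs past a gene's ends is not intron only, although the authors' class calls it so.

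Most members lay wholly inside the gene they are named for, 721 of 825 (87.4%), and 104 ran past its limits, against 98.4% of narrower intron peaks inside. A single member covered a median of 12.5% of its gene, against 1.22% for a narrower intron peak. Among 559 members whose gene has a strand in the promoter table, which holds no gene of chromosome 18, 43 (7.69%, interval 5.76 to 10.2%) covered the annotated start of the gene and 21 (3.76%) its end. Among 9151 narrower intron peaks 1.10% covered the start and 0.656% the end. Per megabase of peak the starts numbered 5.86 and 6.03 and the ends 2.86 and 3.58, in this order, for members and narrower peaks. The centre of a member lay at a median of 42.6% of the gene's length from its start, against 47.1% for narrower peaks. With the gene cut into 5 equal parts, the last held 12.3% of members and 16.4% of narrower peaks. Restricted, after seeing these values, to 233 members that each made up at most 10% of their gene, the first part held 26.6% and the last 16.3%.

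Members also overlapped other genes. At least 1 other gene was overlapped, in whole or in part, by 136 members (16.5%), against 5.55% of narrower intron peaks. Pairs of a peak and an overlapped gene numbered 16 per megabase of members and 31.8 per megabase of narrower peaks. A small RNA gene was overlapped by 30 members (3.63% against 0.414%), with 34 such genes in all, of which 15 were miRNA, 12 snRNA and 6 snoRNA genes and 1 a guide RNA gene. Per megabase these were 3.03 and 2.39. At least 1 bp of another coding gene was overlapped by 41 members. Many of the pairs came from 1 Diaph1 peak of 9200 bp on chromosome 18. It reached the nearly common end of the Pcdhg genes, each counted as a pair, also in the 16 per megabase. Of the 65 pairs of a member and another coding gene, 4 had the other gene wholly under the peak, and in 5 the named gene itself lay inside a longer one. The clearest of these was Lrrn3, a neuronal leucine-rich repeat gene that lies within Immp2l, with a peak of 35055 bp at chr12:41460431-41495485. Gpr22 lay within Cog5 and Gpr82 within Cask, and without strand the reads of a gene and of the gene around it cannot be told apart. On chromosome 18 a member of 33400 bp in Mib1, a ubiquitin ligase of Notch signalling, held the genes of Mir133a-1, Mir1a-2 and Mir1b, which are known from muscle. A member of 9800 bp in Aldh7a1 on the same chromosome held Mir1258. The tables of miRNAs and promoters hold no gene of chromosome 18, so the counts taken from them leave its members out.

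Genes with a member were long. Their median span was 66.2 kb (quartiles 37.0 and 120 kb), against 38.9 kb for genes with intron peaks but no wide one and 18 kb for all coding genes on these chromosomes, and genes with 5 or more members spanned a median of 263 kb. Of coding genes in 5 groups of equal number by span, 0 of 2973 in the shortest had a member. The shares of the next groups were 0.235%, 1.75%, 5.08% and, in the longest, 7.94%. Genes of the shortest group span at most 4.35 kb, so no member fits inside them. Members could run past a gene's limits, as 104 of 825 did, so a gene shorter than 8 kb could still have one. Myl6b (4.529 kb), Ubald1 (5.542 kb) and Gpr22 (7.017 kb) had members of 8800, 10600 and 14965 bp. The part of the width limit in the shares of short genes and in the rise over the groups was not tested. Among only the genes with an intron peak, the shares of the upper 4 groups were 3.61, 11.4, 21.2 and 27.0%. The 7 genes of the second group spanned between 4.35 and 12.2 kb.

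The list held peaks on 15 chromosomes, and the other chromosomes had no peak of any class. Of those 15, chromosomes 11, 4 and 19 had only 1, 2 and 6 peaks in all. Within this list members were unevenly spread over chromosomes. Chromosomes X, 12, 1 and 18 held 786 of the 826 (95.2%) but 70.3% of all protein-coding intron peaks. The X chromosome had 266 of its 2384 intron peaks at 8 kb or more (11.2%, interval 9.96 to 12.5%), in 132 genes. Chromosome 18 had the largest share, 146 of 670 (21.8%, 18.8 to 25.1%), in 82 genes. Chromosome 12 had 187 of 1739 (10.8%) in 100 genes and chromosome 1 had 187 of 3778 (4.95%) in 97. Chromosome 5 had 24 of 1952 (1.23%), chromosome 16 had 12 of 534 (2.25%) and chromosomes 10, 8 and Y had 2, 1 and 1. Chromosomes 2, 15 and 17 had none of their 225, 56 and 37 intron peaks. Among coding genes 13.7% on the X chromosome had a member, 16.1% on chromosome 18, 14.6% on 12, 8.06% on 1 and 1.66% on 5.

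**Figure D4:**
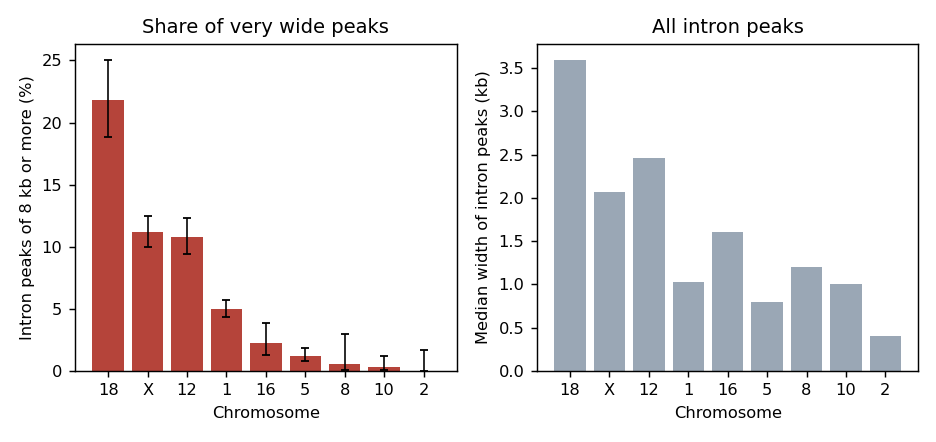
Left, share of protein-coding intron peaks of 8 kb or more on each chromosome with at least 100 such peaks, in percent with Wilson 95% intervals. Right, median width in kb of all protein-coding intron peaks of the same chromosomes, which is highest on chromosome 18 (3.6 kb).

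The median width of intron peaks and the completeness of the list also differed between chromosomes. The median width of all intron peaks was 3600 bp on chromosome 18, 2460 on 12, 2070 on X, 1025 on 1 and 800 on 5, and the share of the running peak numbers that stayed in the list was 43.3, 42.4, 66.8, 29.9 and 27.6%. Of these chromosomes 18 was highest in median width and X in the share of numbers kept. The values that follow are for chromosomes with few or no members. Chromosome 16 had a median of 1600 bp and 30.5% of its numbers, chromosome 8 had 1200 bp and 5.46% and chromosome 10 had 1000 bp and 20.2%. Chromosomes 2, 15 and 17, with no member, kept 89.5, 100 and 73.2% and had medians of 400, 1200 and 600 bp. The part of these values in the differences between chromosomes was not tested. The median width of the members alone was 10800 to 12075 bp on chromosomes X, 12, 1, 18 and 5. Of all coding genes in the longest span group, 37.1% on X (30.3 to 44.4%) and 21.9% on 1, 12 and 18 (19.0 to 25.1%) had a member. In the next group the shares were 29.0% and 16%. Among only the genes with an intron peak, the longest group had 51.2% (42.6 to 59.6%) and 45.6% (40.4 to 50.9%), intervals that overlap. The next group had 45% and 31.9%. Chromosomes 1, 12 and 18 were pooled in these span groups, and no share by span was taken for each alone. Over coding genes of all spans they differed, with 16.1% on 18, 14.6% on 12 and 8.06% on 1, against 13.7% on X. Apart from the main 4 chromosomes the widest members were those of Ube3c on 5 (18000 bp), a ubiquitin ligase gene, of Cdc45 on 16 (14600 bp), a factor of the replicative helicase, of Lamp1 on 8 (10400 bp), a lysosome membrane protein, and of Zfy1 on Y (11440 bp), a zinc finger gene. Zfx, its partner on the X chromosome, had 1 of 21850 bp and is named after its value was seen.

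The functions of the genes were read by keywords in the authors' gene descriptions, in classes that do not overlap. These are words, not a database of function, and misplacements occur, such as Sms (spermine synthase) among sperm genes. Of genes with an intron peak 19.8% had a member. Chromatin genes stood at 18 of 54 (33.3%, interval 22.2 to 46.6%), with 9 of the 18 on the X chromosome. Sperm and flagellum genes were at 13 of 54 (24.1%), kinases and phosphatases at 38 of 169 (22.5%), channels, transporters and receptors at 31 of 145 (21.4%) and RNA processing and translation at 27 of 132 (20.5%). Transcription was at 40 of 201 (19.9%), ubiquitin and protein turnover at 25 of 128 (19.5%), the cytoskeleton at 19 of 105 (18.1%), membrane traffic at 12 of 70 (17.1%), small GTPases at 9 of 60 (15%) and metabolic enzymes at 24 of 168 (14.3%). Meiosis, recombination and repair by its words was at 3 of 25 (12%), among them Stag2 and Esco1, a cohesin acetyltransferase, with 9400 bp. Of genes without such a keyword, 163 of 788 (20.7%) had a member and of uncharacterised genes 25 of 161 (15.5%). The intervals of the other 13 classes spanned 19.8%, and that of the chromatin class did not. These intervals hold counting error over genes, which are not replicates, and are not corrected for the number of classes, so this is no test. Of all genes with an intron peak, 36.2% on the X chromosome had a member, beside 48.5% on chromosome 18, 37.7% on 12 and 24.0% on 1. The genes of the chromatin class with an intron peak had a median span of 59.9 kb, and the part of span or chromosome in its share was not tested.

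**Figure D5:**
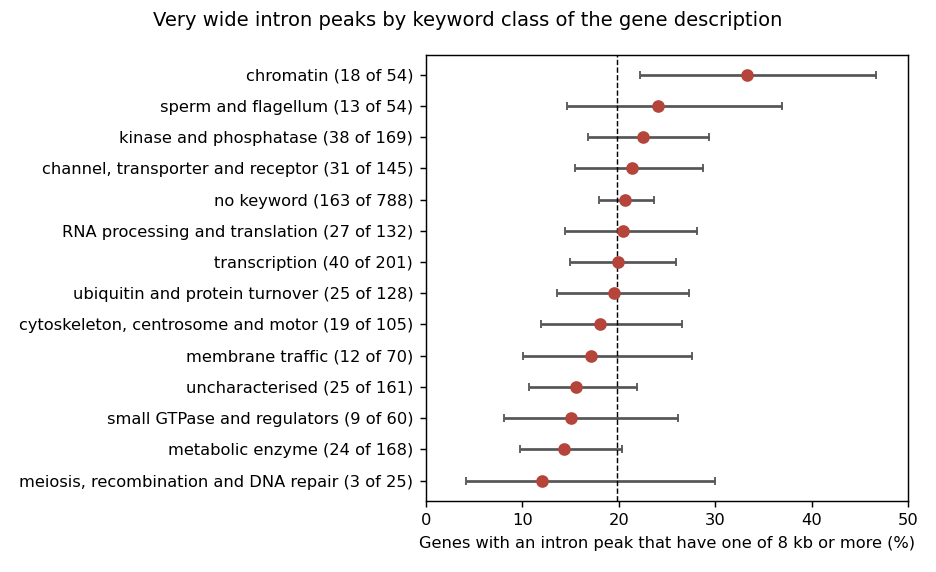
Share of genes with an intron peak that also have one of 8 kb or more, in percent with Wilson 95% intervals, by keyword class of the gene description, with the number of genes in brackets. The dashed line is the 19.8% over all 2260 genes, and the interval of the chromatin class lies to its right. The intervals are for counting error alone and are not corrected for the number of classes.

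Lists of genes by role were set beside the background of 3.0% of coding genes with a member. This share is over all coding genes, of which 15.2% had an intron peak, whereas the keyword classes were over genes with an intron peak. Each list was counted only over its genes on chromosomes with a peak. These were 37 of the 50 listed for meiotic prophase, 44 of 61 for chromatin and 45 of 58 for the ubiquitin system. The part of intron peaks of any width, span or chromosome in the list shares was not tested. Genes of chromatin and DNA methylation had a member in 9 of 44 (20.5%), and 23 of the 44 had any intron peak. Besides Kdm6a with 10120, 12420, 13570 and 38870 bp they were the deacetylase genes Hdac8, with 4 members up to 23920 bp, and Hdac2, with 8600 bp. Atrx, a chromatin remodeller, had 10350 and 30590 bp, the demethylase gene Kdm3b had 15800 and 22400 bp and Phf8 had 9660 and 19090 bp. Phf6 (16330 bp), Kdm5c (15870 bp) and the DNA methyltransferase gene Dnmt3a (9430 bp) had 1 each. Kdm6a, Hdac8, Atrx, Phf8, Phf6 and Kdm5c lie on the X chromosome.

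Genes of the ubiquitin system, which tags proteins for turnover, had a member in 9 of 45 (20%) and an intron peak in 24 (53.3%). Among genes with an intron peak, the keyword class of ubiquitin and protein turnover was at 19.5%, against 19.8% over all such genes. The deubiquitinase gene Usp9x had 4 members of 8510, 9890, 13800 and 24610 bp, together 55.5% of the gene, and Usp14 had 1 of 24600 bp. The ligase gene Huwe1 had 3 of 8280, 11270 and 12880 bp, and Usp37 had 2 (10455 and 11480 bp). Ube3c, Cul4b (11270 bp), Usp11 (11040 bp) and Rnf2 (10660 bp) had 1 each. Genes of the axoneme and flagellum were at 5 of 33 (15.2%), and these were Spag16, Ttll5 and the 3 Dnah7 copies.

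Genes of meiotic prophase were at 4 of 37 (10.8%, interval 4.29 to 24.7%), although 15 had an intron peak. Tex11, a synapsis factor on the X chromosome, had 4 members of 8280, 9200, 9430 and 12190 bp. Scml2, a Polycomb protein of the germ line, had 2 of 8740 and 11270 bp, and Ythdc2, an RNA helicase needed for meiotic entry, had 2 of 8800 and 9400 bp. Mcmdc2 had 1 of 10455 bp. The synaptonemal genes Sycp2 and Sycp3 and the break-forming Spo11 had intron peaks, all narrower. Very wide intron peaks were absent from chromosomes 2, 15 and 17 and rare on chromosome 10 (2 of 614). The part of the chromosome in the widths of these genes' peaks was not tested. The germ cell RNA-binding list had 2 of 21 (9.52%), Ythdc2 again and Boll, a germ cell translational regulator, with 22345 and 13530 bp. In the cell cycle list 2 of 19 (10.5%) had a member, Ccnb3 (20470 bp) and Cdk16 (10580 bp, 88.4% of the gene), and in the piRNA list 1 of 14 (7.14%), Tdrd9 (11275 bp). SR and hnRNP splicing regulators were at 1 of 31 (3.23%), Rbm25 with 8405 bp, and spliceosome genes at 1 of 41 (2.44%), Snrpd1. Bud31 itself had 1 peak of 400 bp in the 3' UTR and no intron peak. Cdk2 had 1 exon peak of 2000 bp.

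Markers of spermatogonia had a member in 0 of 19 (upper bound of the interval 16.8%) and those of postmeiotic spermatids in 0 of 15. For the other cells of the testis, Sertoli cell markers had 1 of 13 (7.69%). Leydig cell markers had 0 of 6, peritubular myoid markers 0 of 6 and macrophage and endothelial markers 0 of 11. Of the Sertoli markers Wt1 and Kitl had narrower intron peaks, and of the myoid markers Myh11 and Mylk had narrower ones. Chromosomes 4, 11 and 19 had no protein-coding intron peak at all, so list members there could have no member. Chromosomes 2, 15 and 17 had such peaks but none of 8 kb or more, so any intron peak of a marker there was a narrower one. The input library's expression is not in the peak list, so a share of RNA from these cells was not tested.

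Crem and Psma8 are germ cell genes chosen after their values were seen. Crem, a transcription factor of spermatids, had 3 members of 9200, 9400 and 14600 bp, and Psma8, a proteasome subunit of the testis, had 23200 and 19800 bp covering 76.6% of the gene. The steroid receptor gene Nr3c1 had 4 of 8400, 8600, 15400 and 33400 bp covering 60.4%. Ccny, a cyclin, had 4 of 8800 to 32200 bp, and Rock1, a kinase of the actin cytoskeleton, had 26400, 11400 and 10000 bp. Atp9b, a phospholipid flippase, had 5 of 9000 to 29200 bp, and Cog5, a Golgi tethering factor, had 5 of 9430 to 24190 bp.

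In 141 cases 2 members were adjacent peaks of the same gene. The median gap between them was 1025 bp, against 1150 bp for 982 adjacent pairs with 1 member and 1840 bp for 8804 pairs with none. The list lacks some running numbers, so a peak missing from it can lengthen a gap. Where adjacent peaks also had successive numbers the order differed, with a median of 800 bp, or 4 bins, in 119 pairs of members, 820 bp in 760 pairs with 1 member and 615 bp in 5002 pairs with none. Among these, gaps of 1 bin made up 13.4% of the pairs of members and 26.4% of the pairs with none. Joining peaks over gaps of at most 1 bin made a stretch of 58425 bp in Ncoa2 from 3 peaks and of 53360 bp in Mageb18 from 2, close to the widest single peaks. The next running number was present in the list for 74.1% of members and 53.9% of narrower intron peaks, and on the X chromosome for 87.2 and 77.9%.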

How the data were processed

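The deposited data are 1 list of peaks, and the authors' deposited positions (chromosome, start, end, class, transcript, gene) have no score or count. The submitters' processing notes name TopHat2 2.0.13 and the mm10 build. How peaks were called, at what threshold and with what use of the input is not given in the sources at hand. Width was end minus start plus 1, and all coordinates are 1-based. Gene spans came from RefSeq of GRCm38.p6, and miRNA and promoter sequences from RefSeq of the same assembly. With 1 library in each group no test was made. Intervals are Wilson 95%. Counting code was tested on simulated data. Members, keyword classes and the 15 gene lists were chosen with earlier results of these data known. Named genes are those with the 10 widest peaks, the 20 with the most, the widest of each chromosome, up to 4 for each class and list by summed width, those nearest 8000 bp, Bud31 and Cdk2. Other genes named (hosts of miRNAs, promoters, genes covered whole, nested genes, list members past the fourth) were chosen after their values were seen. Some genes that the rule names are not reported here. Alternatives used limits of 6000 and 10000 bp, 40 bins, joined neighbours, every class, no X chromosome, and only peaks inside the gene. Python 3.11.15, numpy 2.4.6, pandas 2.3.3, scipy 1.17.1 and matplotlib 3.10.9 were used.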

Additional observations from a re-analysis of the deposited data

How the results depend on the processing

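Of 34 recomputed values over 7 alternatives 23 stayed close and 11 moved. A count was called close within a ratio of 1.5, so 556 or 560 peaks in place of 826 counted as close. The share of intron peak length was judged more strictly and counted as moved at 33.4% in place of 34.5%. The 23 are therefore no measure of robustness. With a limit of 6000 bp there were 1332 peaks in place of 826, and their share on the X chromosome was 29.1% in place of 32.2%, as it was 28.6% with at least 40 bins. With 10000 bp the share of genes with 2 or more was 31.8% in place of 40.5%. The members' share of intron peak length, 34.5%, was 45.3% at 6000 bp, 27.1% at 10000 bp, 33.4% at 40 bins, 38.7% with neighbours joined, 33.1% with every class, 31.1% without the X chromosome and 32.1% with peaks inside the gene. The cause of these shifts was not tested. Peak counts under the other alternatives ran from 556 to 920 and gene counts over all of them from 315 to 629. No paired analysis was possible because each group had 1 library. The peak list has no depth, so precision rests on counts of peaks alone.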

Other observations

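Outside the rule, 212 of the 1038 peaks of 8 kb or more in the list were not intron peaks of protein-coding transcripts. Of these 94 belonged to protein-coding transcripts in another class and 118 to noncoding transcript types, 85 of them introns, in 90 genes, with 26 peaks on the X chromosome. The transcript type is given per transcript and not per gene, so 55 of the 118 named a gene that the reference calls protein-coding, in 43 genes, of which 14 also had a member. The widest peak of the whole list was among them, 60260 bp in Pola1, the catalytic subunit of DNA polymerase alpha, on the X chromosome. Taf4b, a general transcription factor subunit known for its role in germ cells, had 3 such peaks with a widest of 39400 bp, and Zfp407 had 5 besides its 3 members. Among long noncoding RNAs Gm32262 on the X chromosome had 4 with a widest of 39100 bp and Gm32828 on chromosome 12 had 5 with a widest of 44895 bp.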
